A study of Mus musculus with 12 samples.

Results

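The heat shock proteins and their J-domain partners were followed in the hippocampus of APP/PS1 and wild-type (WT) mice. The set was chosen by gene symbol. It took in every protein-coding gene of the count table whose symbol began with Hspa, Hspb, Hspd, Hspe, Hsph, Hsp90, Dnaja, Dnajb or Dnajc. This gave 74 genes among the 55573 in the table, and 14 processed pseudogenes with matching symbols were left out. By name they comprised 13 Hspa, 8 numbered Hspb, 2 Hspd and Hspe, 1 Hsph, 3 Hsp90, 4 Dnaja, 13 Dnajb and 28 Dnajc genes. The last 2 were Hspbp1 and Hspbap1, whose symbols match although they encode binding partners and not small heat shock proteins.

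Whole right hippocampi were taken from mice of 4.5 months on the C57BL/6J background, and 1 directional poly-A library was made per animal. The APPSwe/Ps1dE9 (APP/PS1) group had 4 females and 4 males, and the WT group had 2 females and 2 males. APP/PS1 mice carry a chimeric mouse/human APP with the Swedish mutation and the Ps1dE9 transgene, both driven by a prion promoter element. WT mice carry neither transgene, and the labels name no treatment.

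Molecular chaperones bind unfolded or partly folded proteins and help them fold, keep them from aggregating or pass them on for degradation. Hsp70 proteins do this in cycles of ATP hydrolysis that J-domain proteins (the DnaJ family) start and nucleotide exchange factors such as Hsp110 end, while Hsp90 proteins act later on selected clients and small heat shock proteins hold unfolded chains without ATP. Some members are made at all times, others are switched on by heat shock factor 1 or, in the endoplasmic reticulum (ER), by the unfolded protein response, and in neurons the system is known for clearing protein aggregates and for keeping synaptic vesicle proteins functional.

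Of the 74 genes, 62 were expressed highly enough to be tested, with a log2 CPM (CPM, counts scaled to the size of the library) of at least 1 in at least 3 libraries, among 14008 genes tested in all. The other 12 were close to silent. Dnajb13 had between 2 and 68 counts per library, Dnajb3 between 22 and 71, Hspa1l, the Hsp70 gene next to Hspa1a, between 19 and 52, and Hspb2 between 3 and 31. Hspb3 did not exceed 11 counts in any library, Hspb7 did not exceed 17, and Dnajc22 did not exceed 10. Dnajc5b, Dnajb7, Hspb9 and Dnajb8 reached at most 3 counts, and Dnajc5g had none in any of the 12 libraries, each of 36714316 counts or more. The absence of counts does not exclude a level below about 3 counts in a library. Just above the filter lay Hspb6, with 79 to 229 counts, Dnajc25, with 123 to 208, and Hspbap1, with 183 to 247.

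Total counts per library ranged from 36714316 to 50643565. The 6 hippocampal neuron markers were detected in all 12 libraries and summed to 2076 to 2503 CPM. Deposited counts for the mouse App gene were 1562 to 1674 CPM in APP/PS1 and 1547 to 1718 CPM in WT. Those for the prion gene Prnp were 724 to 803 CPM in APP/PS1 and 746 to 816 CPM in WT. Neither gene separated the genotypes, so they do not check the labels. Whether reads of the chimeric transgene were counted under App was not tested. WT female 2 and, in APP/PS1, female 1 and male 2 were rich in choroid plexus transcripts. In these 3 libraries the 8 choroid plexus markers summed to 3845 to 6898 CPM, against 21.4 to 40.4 in the other 9. Microglial markers, all 5 of which were detected in every library, summed to 223 to 325 CPM in APP/PS1 and 165 to 198 in WT, and the 4 astrocyte markers summed to 1433 to 2109 against 1259 to 1380. In whole tissue, fewer cells of a type and less RNA per cell cannot be told apart.

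The constitutive chaperones Hsp90ab1 and Hspa8 and the stress-inducible Hsp90aa1 stood highest in the family. Per kilobase of exon, normalized CPM were highest for Hsp90ab1, the constitutive Hsp90, at 529, followed by Hspa8, the constitutive Hsp70 also called Hsc70, at 383, and Hsp90aa1, the Hsp90 isoform that stress raises further, at 376. The mitochondrial chaperonin Hspd1 (Hsp60) followed at 78.7 per kilobase, and the ER chaperones Hspa5 (BiP) and Hsp90b1 (Grp94) at 72.3 and 68.6. Hspa1b reached 5.57 per kilobase, Hspa1a 3.74 and Hspb6 1.33, and the lowest of the named members were Dnajc25 at 0.890 and Hspbap1 at 0.561. In WT and APP/PS1 libraries alike, the classical stress-induced Hsp70 genes were therefore far below Hspa8. On this scale Hspa8 and Hsp90aa1 lie close together, and their order was not tested. Of the 150-base stretches in their transcripts, 23.0% for Hspa8 and 28.5% for Hsp90aa1 also occur in other genes, mostly pseudogenes, so their counts are uncertain to that degree.

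The promoters show which members carry the sequence that heat shock factor 1 recognises, which is built from inverted repeats of GAA. Windows from 250 bases before to 50 after the start of each gene, from RefSeq on GRCm38.p6, were found for 51 of the 62 tested members. The search was for GAANNTTC or TTCNNGAA on both strands. At least 1 match in the window of any listed start lay in 14 of the 51 members (27.5%), against 17.0% of 27025 genes with a window. In the stress-inducible list it lay in 6 of 7 (85.7%), with no match in the window of Dnajb1 and no window for Hsp90aa1. That list was made of genes already known for induction by stress, so this share is not an independent finding. Hspa1a and Hspa1b, neighbours on chromosome 17 that encode nearly the same Hsp70, had windows identical at 296 of 300 bases and are not separate entries in that share. The stretches below show the matches before the start in each of these 6 genes in capitals, on the strand of the gene, because the inducible list is the one whose level later separates single libraries.
Hspa1a, chr17:34972233-34972280, minus strand: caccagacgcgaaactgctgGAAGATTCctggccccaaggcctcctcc
Hspa1b, chr17:34959315-34959362, minus strand: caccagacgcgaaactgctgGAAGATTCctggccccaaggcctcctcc
Hsph1, chr5:149636342-149636389, minus strand: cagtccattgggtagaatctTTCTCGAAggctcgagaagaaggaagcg
Hspb1, chr5:135887782-135887849, plus strand: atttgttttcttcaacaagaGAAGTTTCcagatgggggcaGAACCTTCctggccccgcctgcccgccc
Dnaja1, chr4:40722324-40722371, plus strand: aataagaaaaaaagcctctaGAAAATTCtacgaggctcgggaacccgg
Dnajb4, chr3:152193846-152193879, minus strand: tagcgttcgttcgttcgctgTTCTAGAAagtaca

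A run of at least 3 such units, in which the match is continued by a further inverted repeat at the same spacing, was rarer, in 0.662% of all genes and in 4 of the 51 members, Dnajb6, Hspd1, Hspe1 and Hsph1. In Hsph1 it lay after the start, where it makes up the other 2 of its 3 matches, and it is not printed. Hspd1 and Hspe1 encode the mitochondrial chaperonin and its lid (Hsp60 and Hsp10) and lie head to head on chromosome 1, so that one stretch between them serves as the window of both. It is given once on the strand of Hspd1, with the repeats in capitals.
Hspd1 and Hspe1, chr1:55088039-55088096, minus strand: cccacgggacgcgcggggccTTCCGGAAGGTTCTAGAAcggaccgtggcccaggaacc
The ER stress response element, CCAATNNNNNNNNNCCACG, is the site of the unfolded protein response factor ATF6. It occurred in 0.137% of all genes and in 3 of the 51 members, the ER genes Hspa5, Hsp90b1 and Dnajc3, of 9 ER members with a window. The match of Hspa5 and of Dnajc3 is shown in capitals, since these ER members come up again for their spread between libraries. A match describes the letters in the window and not binding.
Hspa5, chr2:34772005-34772063, plus strand: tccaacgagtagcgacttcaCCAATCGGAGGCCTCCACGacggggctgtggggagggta
Dnajc3, chr14:118937807-118937865, plus strand: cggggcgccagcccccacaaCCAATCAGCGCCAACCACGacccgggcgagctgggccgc

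The first comparison asked whether chaperone transcripts differed between APP/PS1 and WT hippocampus, with both sexes averaged. None of the 62 members was called at an FDR under 0.1 (edgeR's quasi-likelihood test, Benjamini-Hochberg adjusted over all genes), where 266 of 14008 genes (1.90%) were called. With an unadjusted p under 0.05 there were 2 members, Hspb6 and Hspa12b, against 1342 genes (9.58%). DESeq2 called 0 members too, and edgeR's likelihood ratio test called 1, Hspb6, where it called 397 of all genes (2.83%). No member had every APP/PS1 library above every WT library (184 genes, 1.31%) or every one below (19 genes, 0.136%).

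The intervals show how large a genotype effect these libraries leave room for. The 95% interval of the log2 fold change lay within 0.5 on either side of 0 for 60 of 62 members, and within 1 for all 62, with a median half-width of 0.11. Estimates were above 0 for 32 members and below 0 for 30, with a median of 0.0038 beside 0.0096 over all genes. Hspb6 and Hspa12b were the exceptions to the narrower bound.

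**Figure D1:**
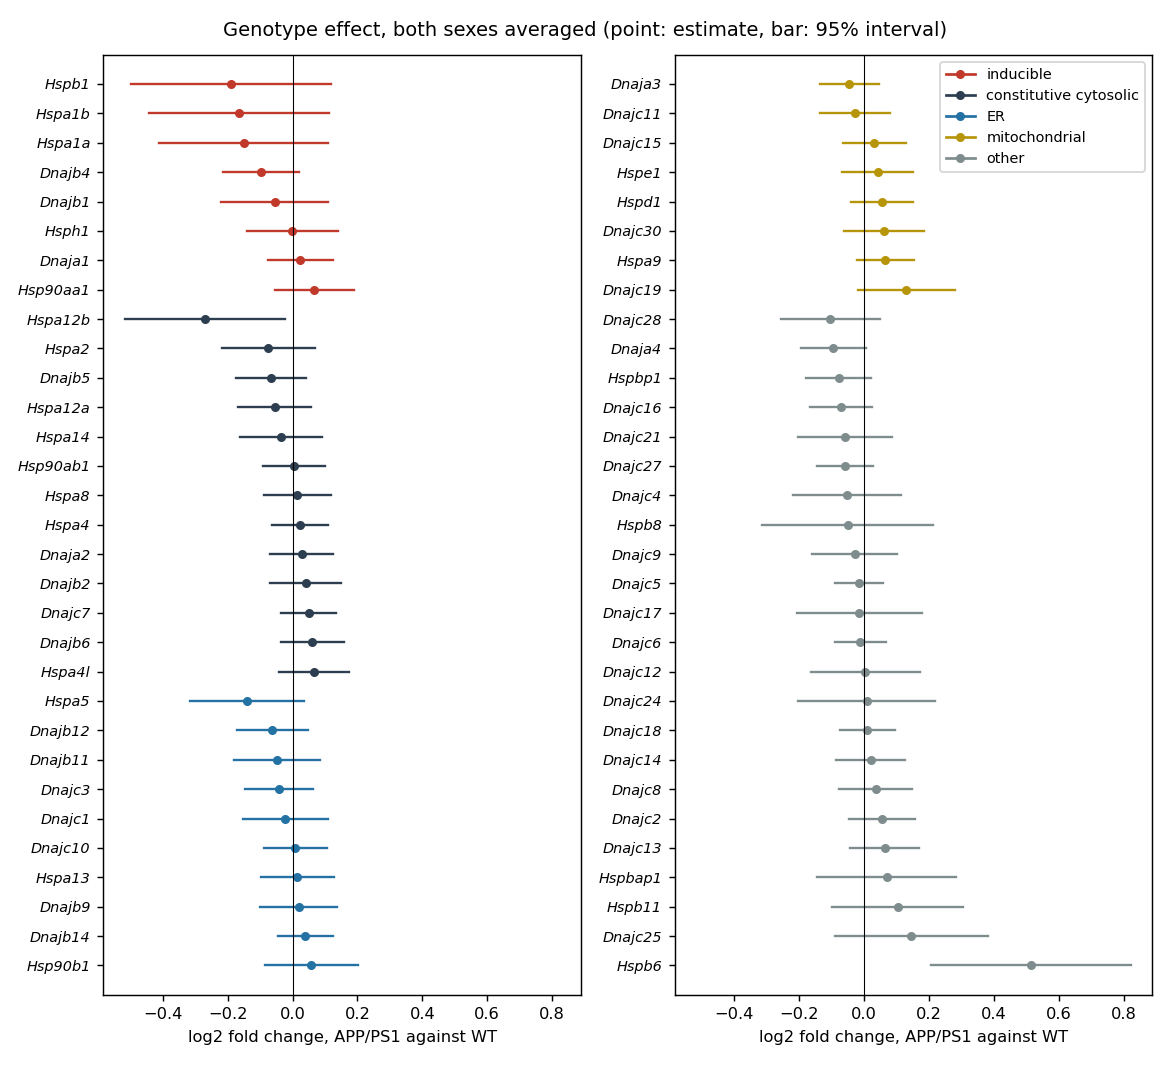
Log2 fold change of APP/PS1 against WT, both sexes averaged, for each of the 62 tested members (horizontal axis, log2), grouped and coloured by list, with points for estimates and bars for 95% intervals from the edgeR model. The intervals of Hspb6 and Hspa12b do not include 0, and neither gene passed the FDR of 0.1.

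Among the 8 stress-inducible members, 2 had estimates above 0 and 6 below, with a median of -0.08. Hsph1, the Hsp110 that serves Hsp70 as exchange factor and in disaggregation, had 341 to 432 normalized CPM in the 8 APP/PS1 libraries with a median of 379, and 358, 368, 382 and 437 in the 4 WT libraries. The groups overlapped almost completely, and the log2 fold change was -0.0003 (SE 0.06). Hsp90aa1 ran from 1310 to 1716 in APP/PS1 with a median of 1534, and from 1247 to 1542 in WT, for a log2 fold change of 0.07 (95% interval -0.05 to 0.19).

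For the stress-induced Hsp70 genes the WT animals themselves lay far apart. Hspa1b stood at 16.6 and 14.1 normalized CPM in the WT females and at 13.5 and 23.3 in the WT males. In APP/PS1 it stood at 11.8, 12.1, 16.0 and 15.1 in females and at 17.6, 13.4, 17.6 and 16.2 in males. WT male 2 was the highest library and the 2 lowest were APP/PS1 females, and otherwise the genotypes overlapped (log2 fold change -0.17, 95% interval -0.44 to 0.11). Hspa1a gave -0.15 (-0.41 to 0.11), with 8.70 to 13.1 in APP/PS1 and 8.72 to 15.5 in WT. Of the 150-base stretches in the transcripts of Hspa1a, 46.0% also occur in another gene, chiefly Hspa1b, and of those of Hspa1b 40.5%, so reads of this pair could be split or lost in counting and both values are uncertain. Leaving out WT male 1 brought Hspa1b under the threshold (log2 fold change -0.37, adjusted p = 0.051 by edgeR's quasi-likelihood test), and leaving out WT male 2 turned its sign (0.03).

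Dnaja1 and Dnajb1, J-domain partners that hand clients to cytosolic Hsp70, and Dnajb4 gave log2 fold changes of 0.02, -0.06 and -0.10. Dnajb1 had 53.5 to 71.1 normalized CPM in APP/PS1 and 57.3, 53.8, 61.9 and 78.2 in WT. Hspb1 (Hsp25), a small heat shock protein, gave -0.19 (95% interval -0.50 to 0.12), with 4.65 to 9.45 in APP/PS1 and 4.92 to 9.79 in WT. For both genes the genotypes overlapped almost completely. Leaving out WT male 2 moved the log2 fold change of Hspb1 to -0.0003, of Hspa1a to 0.05 and of Dnajb1 to 0.03, and leaving out WT male 1 moved them to -0.37, -0.35 and -0.14. Of the stretches in Hspb1 transcripts, 39.1% also occur in its pseudogenes.

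**Figure D2:**
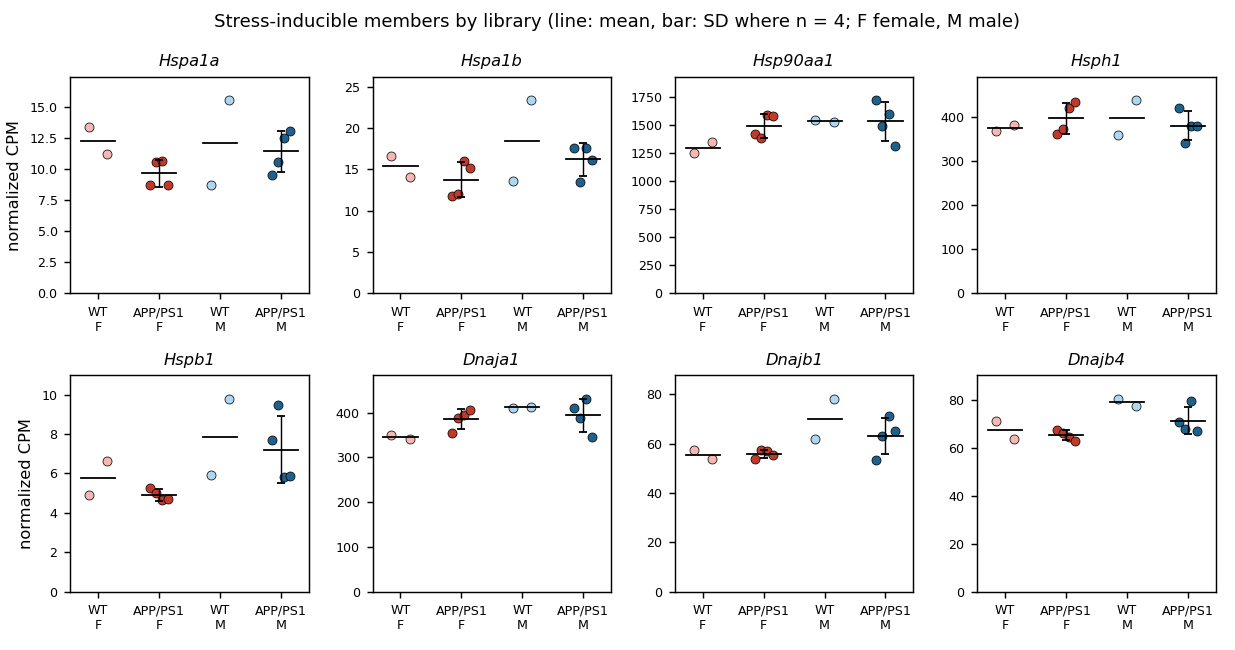
Normalized CPM (vertical axis, from 0) of the 8 stress-inducible members in each library, by genotype and sex, with a line at the group mean and an SD bar for the groups of 4. WT male 2 is the highest library for 5 of the 8, among them Hspa1b at 23.3 and Dnajb1 at 78.2.

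The constitutive cytosolic members had 8 estimates above 0 and 5 below, with a median of 0.01. Hspa8 had 1571 to 1752 normalized CPM in APP/PS1 with a median of 1627, and 1517, 1589, 1628 and 1818 in WT. Its log2 fold change was 0.01 (95% interval -0.09 to 0.12), and that of Hsp90ab1 was 0.0042 (-0.09 to 0.10). The Hsp110 relatives Hspa4 and Hspa4l gave 0.02 and 0.07, and Dnajb6, known for holding back polyglutamine aggregation, gave 0.06 (-0.04 to 0.16). The genotypes overlapped for each of these genes.

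Hspa12b (chr2:131127280-131146321, GRCm38), a distant relative of Hsp70 known from endothelial cells, was the constitutive member with the lowest unadjusted p. It had 4.58, 6.23, 5.32 and 5.82 normalized CPM in APP/PS1 females, 5.60, 5.75, 5.07 and 6.57 in APP/PS1 males, 6.16 and 7.59 in WT females and 6.50 and 7.07 in WT males. The APP/PS1 libraries lay mostly below the WT libraries, with 2 of the 8 above the lowest WT animal. The log2 fold change was -0.27 (SE 0.11, unadjusted p = 0.035, adjusted p = 0.45 by edgeR's quasi-likelihood test). The 5 endothelial and mural markers summed to 105 to 149 CPM in APP/PS1 and 99.1 to 158 in WT. Over the 21 alternative settings the adjusted p ranged from 0.298 to 0.856. Without the 3 choroid plexus-rich libraries the log2 fold change shrank to -0.15, and in females alone it shrank from -0.30 to -0.04 and grew to -0.49 without WT female 1.

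In the ER, 5 estimates were above 0 and 5 below. Hspa5, the Hsp70 of the ER, had 297, 292, 269 and 239 normalized CPM in APP/PS1 females, 321, 346, 290 and 298 in APP/PS1 males, 312 and 309 in WT females, and 286 and 411 in WT males. WT male 2 was the highest by far and APP/PS1 female 4 the lowest, and the rest overlapped. The log2 fold change was -0.14 (95% interval -0.32 to 0.03), reached an adjusted p of 0.054 by edgeR's quasi-likelihood test without WT male 1 (log2 fold change -0.27) and fell to -0.02 without WT male 2. Hsp90b1, the ER Hsp90, gave 0.06 (-0.08 to 0.20). Dnajb9 (ERdj4) and Dnajc3 (P58IPK), co-chaperones of Hspa5 that the unfolded protein response induces, gave 0.02 and -0.04.

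In mitochondria, 6 estimates were above 0 and 2 below, with a median of 0.05. Hspd1 had 197 to 224 normalized CPM in APP/PS1 and 197 to 215 in WT, for a log2 fold change of 0.05 (95% interval -0.04 to 0.15). Hspe1 gave 0.04 (-0.07 to 0.15), and Hspa9, the mitochondrial Hsp70, gave 0.07 (-0.02 to 0.15). Dnajc19, part of the motor that imports proteins into mitochondria, had the largest estimate of the list at 0.13 (-0.02 to 0.28), with 19.4 to 23.3 in APP/PS1 and 16.2 to 23.0 in WT. It was 0.05 without WT male 2 and 0.23 without WT male 1. Each of these ranges overlapped between the genotypes.

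J-domain proteins of the synapse and of vesicle traffic had narrow intervals around 0. Dnajc5 (cysteine string protein), which keeps synaptic vesicle proteins folded, had 384 to 426 normalized CPM in APP/PS1 and 395 to 422 in WT, and its log2 fold change was -0.02 (95% interval -0.09 to 0.06). Dnajc6 (auxilin), which uncoats clathrin vesicles, gave -0.01 (-0.09 to 0.07), and Dnajc13, which acts at endosomes, gave 0.06 (-0.04 to 0.17). The bound farthest from 0 among these 3 intervals was 0.17.

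The small heat shock proteins held the one member that came nearest to a genotype call. Hspb6 (Hsp20, chr7:30552178-30555443, GRCm38) had 4.43, 2.77, 3.59 and 2.45 normalized CPM in APP/PS1 females and 2.91, 5.85, 2.42 and 2.90 in APP/PS1 males. In WT it had 2.09 and 3.27 in females and 2.26 and 1.67 in males. All 8 APP/PS1 libraries were above 3 of the 4 WT libraries, and WT female 2 lay inside the APP/PS1 range. The log2 fold change was 0.51 (SE 0.14, 95% interval 0.21 to 0.82, unadjusted p = 0.0033, adjusted p = 0.14 by edgeR's quasi-likelihood test). The likelihood ratio test gave an adjusted p of 0.039, and over the 21 alternative settings the adjusted p ranged from 0.039 to 0.683 and the log2 fold change from 0.38 to 0.65.

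Several measurements stood beside the Hspb6 value. The highest Hspb6 library of each genotype, and the second highest of APP/PS1, were the 3 rich in choroid plexus transcripts, and without these 3 the log2 fold change was 0.50 (adjusted p = 0.40 by edgeR's quasi-likelihood test). The astrocyte and the microglial markers were both higher in every APP/PS1 library than in every WT library, the same direction as Hspb6. Over the 12 libraries, Hspb6 had r = 0.76 with the choroid plexus marker sum and 0.73 with the oligodendrocyte sum. With the astrocyte sum r was 0.67, with the microglial sum 0.62, and with the neuron sum -0.35. The part of any of these cell types in the Hspb6 value was not tested. Hspb6 is also a low gene whose annotated span overlaps Lin37 and Proser3 on the opposite strand and Gm38670 on its own strand, and the strand setting of the counting is not given in the sources used here. Hspb8, which works with Bag3 in selective autophagy, gave -0.05 (95% interval -0.31 to 0.21), and Hspb11, an intraflagellar transport protein, gave 0.10 (-0.10 to 0.30).

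**Figure D3:**
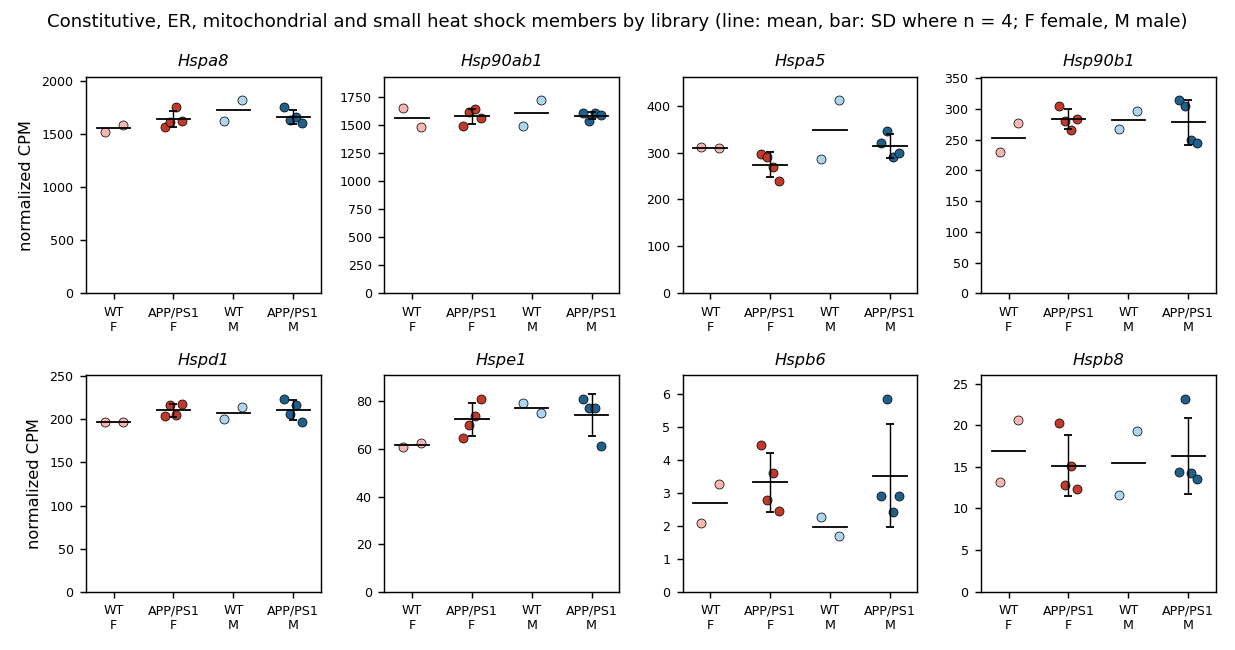
Normalized CPM (vertical axis, from 0) of 8 constitutive, ER, mitochondrial and small heat shock members in each library, by genotype and sex, with a line at the group mean and an SD bar for the groups of 4. Hspb6 and Hspb8 spread widely, with APP/PS1 male 2 the highest library at 5.85 and 23.2, while Hspd1 stayed between 197 and 224.

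No member was called within either sex. In females 0 of 62 members were called (107 genes, 0.764%), and 0 had an unadjusted p under 0.05 (1369 genes, 9.77%). In males 0 were called (24 genes, 0.171%) and 2 had an unadjusted p under 0.05 (798 genes, 5.70%). These were Hspb6 (log2 fold change 0.59, SE 0.20) and Hspbp1, an Hsp70 binding protein (-0.15, SE 0.06). The test of the difference between the female and male effects called 0 members and 0 of all genes (0%), with 0 members and 564 genes (4.03%) at an unadjusted p under 0.05. DESeq2 and the likelihood ratio test also called 0 members in these 3 comparisons. With 2 WT animals per sex the intervals were wider, and 57 of 62 members lay within 0.5 in females, 57 in males and 51 for the difference between the sexes.

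The direction of the inducible list in males changed with 1 animal. All 8 inducible members had estimates below 0 in APP/PS1 males against WT males, with a median of -0.09 beside 0.0053 over all genes, while in females 4 were above 0 and 4 below. Without WT male 2, 5 of the 8 were above 0 in males and the median was 0.08. Without WT male 1 all 8 were below 0 and the median was -0.24. The median kept its sign but came nearer to 0 without APP/PS1 male 2 (-0.02, with 3 of 8 above 0), APP/PS1 male 4 (-0.05, with 2 above), WT female 1 (-0.06, with 2 above) and the 3 choroid plexus-rich libraries (-0.04, with 2 above). With both sexes averaged, the same omission of WT male 2 moved the median from -0.08 to 0.03.

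Females and males were also compared, with the genotypes averaged. Again 0 of 62 members were called by edgeR's quasi-likelihood test, where 14 genes (0.0999%) were. DESeq2 and the likelihood ratio test each called 1, Hspb1, and each called 54 of all genes (0.385%). At an unadjusted p under 0.05 there were 8 members, against 885 genes (6.32%), of which 7 had the higher estimate in males and 1, Dnajb5, in females. Marker sums also moved with sex. The 4 red blood cell markers summed to 55.7 to 70.4 CPM in males and 31.8 to 55.5 in females, higher in every male than in every female, and the 6 immediate early genes, which respond to activity and handling, summed to 361 to 508 in males and 232 to 395 in females. Their part in these estimates was not tested. Of the 7, 3 were inducible (Hspb1, Dnajb1 and Dnajb4), 2 were of the ER (Hspa5 and Dnajb9), and the others were Hspe1 and Dnaja4, whose annotated span overlaps Wdr61 on the opposite strand.

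Hspb1 (chr5:135887919-135889563, GRCm38) had the largest of these estimates. It had 5.27, 5.01, 4.65 and 4.68 normalized CPM in APP/PS1 females, 4.92 and 6.63 in WT females, 7.68, 9.45, 5.84 and 5.88 in APP/PS1 males and 5.90 and 9.79 in WT males. Every male was above every female but 1, WT female 2, which is one of the choroid plexus-rich libraries. The endothelial and mural markers were also highest in 2 of the 3 males highest for Hspb1, at 158 CPM in WT male 2 and 149 in APP/PS1 male 1, against 99.1 to 133 in the other 10 libraries, and the ependymal markers were highest in the third, APP/PS1 male 2, at 50.9 CPM. Their part, like that of the red blood cell markers, was not tested. The log2 difference, female minus male, was -0.57 (SE 0.14, unadjusted p = 0.0017, adjusted p = 0.43 by edgeR's quasi-likelihood test). Leaving out WT male 2 gave -0.34, and leaving out APP/PS1 male 2 gave -0.44. The difference was -0.72 in the absence of WT male 1, where it passed (adjusted p = 0.035 by the same test). Over the 21 alternative settings its adjusted p ranged from 0.035 to 0.991.

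The other members of this group were narrower. Dnajb1 had 53.7 to 57.3 normalized CPM in females with a median of 56.2, and 53.5 to 78.2 in males with a median of 64.1. The females lay in a narrow band, and 5 of the 6 males were above all of them (log2 difference -0.26, SE 0.08, adjusted p = 0.55 by edgeR's quasi-likelihood test). Dnajb5 ran from 138 to 168 in females with a median of 156, and from 126 to 155 in males with a median of 140 (log2 difference 0.18, SE 0.05, adjusted p = 0.54). Hspa5 gave -0.24 (SE 0.08), which shrank to -0.08 without WT male 2 and passed without WT male 1 (log2 difference -0.34, adjusted p = 0.057). For Dnajb5 and Hspa5 the sexes overlapped.

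Members differed widely in how far libraries of one group lay apart. The within-group SD of log2 normalized CPM had a median of 0.10 over the 62 members and of 0.13 over all genes tested, and the median member stood at the 28.7th percentile of all genes. The small heat shock genes Hspb6, Hspb8 and Hspb1 spread most, at 0.45, 0.39 and 0.30, while Hspb11 stood at 0.17. Hspa1a and Hspa1b followed, each at 0.27. The tightest were Dnaja3, a mitochondrial J-domain protein, at 0.04, Dnajc18 and Dnajc5 at 0.05, Dnajc7 at 0.05 and Hspa9 at 0.05, whose highest library was 1.10 to 1.14 times their lowest. These 3 small heat shock genes and both Hspa1 genes were also low, with mean normalized CPM of 3.05 to 15.9.

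**Figure D4:**
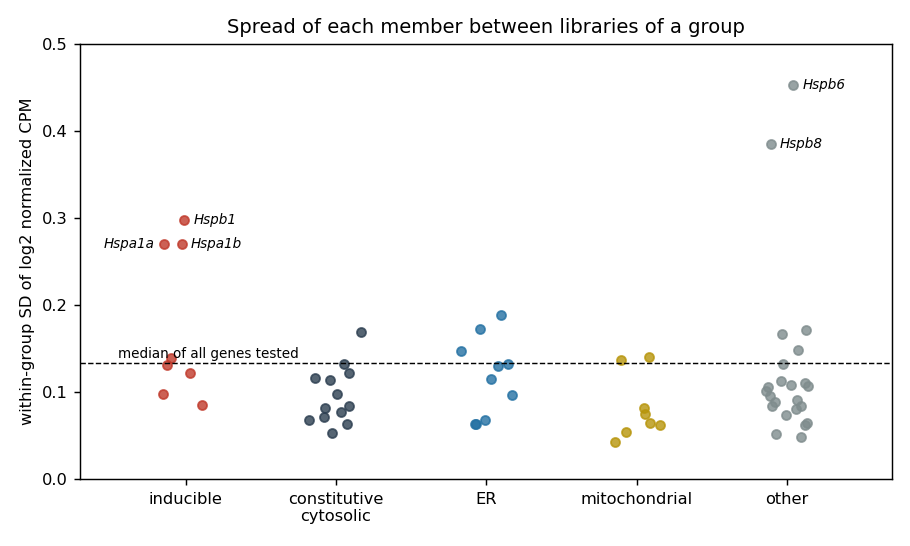
Within-group SD of log2 normalized CPM (vertical axis) for each tested member, by list, with the median of all 14008 genes tested as a dashed line at 0.13. The named points, Hspb6, Hspb8, Hspb1, Hspa1a and Hspa1b, lie between 0.27 and 0.45, above every other member.

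Single libraries stood out in that spread. WT male 2 was the highest of the 12 libraries for 14 of the 62 members and for 5 of the 8 inducible ones (62.5%), where it was the highest for 8.12% of all genes. The median deviation of the inducible members from their mean over libraries was 0.28 on the log2 scale in WT male 2, 0.18 in APP/PS1 male 3 and 0.11 in APP/PS1 male 1. It was lowest in APP/PS1 female 1, at -0.14, and in WT female 2, at -0.13. The constitutive members stayed between -0.06 and 0.04 in every library. High and low libraries of the inducible list were thus found in both genotypes, and the 3 highest were males.

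**Figure D5:**
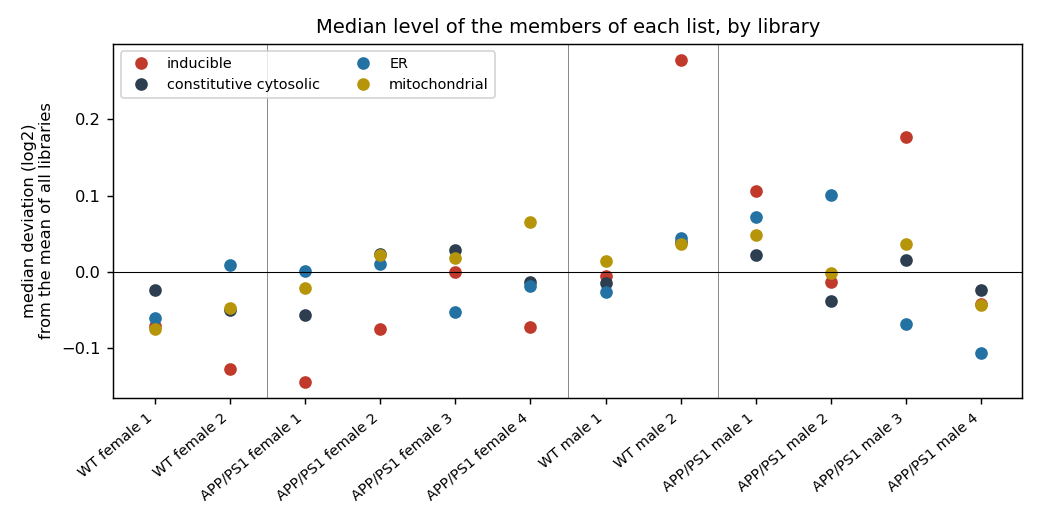
Median deviation on the log2 scale (vertical axis) of the members of the inducible, constitutive cytosolic, ER and mitochondrial lists from their mean over all 12 libraries, for each library, with vertical lines between the groups. The inducible list reaches 0.28 in WT male 2 and -0.14 in APP/PS1 female 1, while the constitutive list stays between -0.06 and 0.04.

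The choroid plexus-rich libraries had their own marks. Dnajc3 was at 96.9, 117 and 97.0 normalized CPM in these 3 libraries and at 78.8 to 90.1 in the other 9. Hspb8 was at 20.3, 23.2 and 20.7 against 11.7 to 19.3. Dnajc5 was at 384, 395 and 395 against 404 to 426. The first pair were higher in all 3, which is 3.23% of members beside 5.53% of all genes, and Dnajc5, a neuronal synaptic protein, was lower in all 3, which is 1.61% beside 1.16%. One animal of each group except WT male is among the 3, and no batch label separates them.

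It was also asked which members varied together with Hsph1, over the 12 libraries. No member of 61 was called at an FDR under 0.1 in either direction, and neither was any of the other 14007 genes (0% positive and 0% negative), by a two-sided permutation test of Pearson's r over all genes. At an unadjusted p under 0.05 there were 10 members (16.4%), against 11.1% of all genes. Without WT male 2 and APP/PS1 female 4, the libraries farthest from the Hsph1 median, there were 3 (4.92%, against 6.01% of all genes), and without APP/PS1 male 2 there were 6 (9.84%, against 10.4%). Hspa4, a relative of Hsph1 in the Hsp110 group, had the highest r at 0.82 (Spearman's rho 0.83, permutation p = 0.00104 for r and 0.0015 for rho, adjusted p = 0.27 for r), and r was 0.77 without those 2 extreme libraries and 0.76 over the 9 libraries low in choroid plexus. Hspa8 gave r = 0.69 with rho = 0.50, and Hspa1b gave r = 0.67 with rho = 0.64, with adjusted permutation p of 0.36 for both, and without the same 2 libraries r was 0.71 and 0.60. Dnajc13 had the lowest r at -0.72 (rho -0.64, adjusted permutation p = 0.34), which came to -0.44 without those 2 libraries, so the relation rests in part on them, and to -0.80 over the 9 libraries low in choroid plexus.

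Other genes of the pathway, taken from lists of named genes, were read beside the family. Of 28 heat shock factors and co-chaperones 0 were called by edgeR's quasi-likelihood test with both sexes averaged, 12 with estimates above 0 and 16 below, and Hsf1, the heat shock factor itself, had 22.5 to 26.6 normalized CPM in APP/PS1 and 23.4 to 29.6 in WT (log2 fold change -0.10, SE 0.06). An unadjusted p under 0.05 was reached there by 2 genes, Bag5 (-0.14) and Ppid (0.12), beside 9.58% of all genes. All 8 subunits of the cytosolic chaperonin had averaged estimates above 0, the largest of 0.08 for Cct5, with 0 called and 0 at an unadjusted p under 0.05. The direction of the estimates was not the same in the 2 sexes, but the test of the difference between the sexes called 0 of the 8. None of them had an unadjusted p under 0.05 in that test by edgeR's quasi-likelihood test. In females all 8 were above 0, with a median of 0.10, and in males 3 were above and 5 below, with a median of -0.04. Of 9 mitochondrial quality control genes 0 were called and 0 reached an unadjusted p under 0.05.

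Of 20 genes of the ER unfolded protein response, 19 were tested and 1 was called, beside 1.90% of all genes. Edem1, which sends misfolded glycoproteins to degradation, had 26.3 to 31.8 normalized CPM in APP/PS1 with a median of 27.8, and 20.9 to 24.3 in WT with a median of 22.8. Every APP/PS1 library was above every WT library, as for 1.31% of all genes, and the log2 fold change was 0.32 (SE 0.07, adjusted p = 0.036 by edgeR's quasi-likelihood test). Of the 19 estimates, 14 were below 0, with a median of -0.06. Its chaperone neighbours in the family, Hspa5, Hsp90b1, Dnajb9 and Dnajc3, are given above and none passed.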

How the data were processed

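Per the labels and methods, the authors used Trimmomatic for trimming, STAR for alignment against GRCm38 and HTSeq for gene counts. The deposited values are raw whole-number counts per Ensembl gene for 12 libraries. Versions, annotation release, strand and multi-mapping options are not given in the sources used here. Symbols and positions came from GENCODE M21, which matched 55480 of 55573 identifiers.

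Counts were scaled by upper-quartile factors. All 12 libraries entered a single edgeR 4.0.16 quasi-likelihood model (R 4.3.3) with 4 group means and 2 RUV factors, whose controls were all genes except the top 5000 of a first-pass test. Contrasts were two-sided, and p-values were Benjamini-Hochberg adjusted over 14008 genes, with a call at an FDR under 0.1. Normalized CPM are without RUV factors, and within-group SD pools 4 groups on the log2 scale with a prior count of 2. The correlation used 100000 permutations. The method was checked on simulated counts. Alternatives comprised the likelihood ratio test, DESeq2 1.42.0, other scaling, filters and RUV factors, a replicate block and omitted libraries. Total counts ranged from 36714316 to 50643565. The parts of counting error and of spread between animals were not separated gene by gene. The 14 within-group pairs differed by 15.5 to 73.0 chi-square units per degree of freedom, so none was a repeated library.

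Members and lists were chosen with earlier results of these data known. The named genes were the inducible, constitutive, ER and mitochondrial lists, the small heat shock, synaptic and binding-partner members, the genes nearest the expression filter, and the extremes of p (5 each way), spread (5 each way) and correlation with Hsph1 (5 highest, 3 lowest).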

Additional observations from a re-analysis of the deposited data

Results flagged for a closer look

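In each group of 4 libraries, a level far from the other 3 was looked for with Dixon's test among 52 named members. Of 104 groups, 7 had such a library, which is near the chance share of about 1 in 20. The named members include those chosen for the widest spread between these same libraries, Hspb6 and Hspb8 among them. Flags on those genes are thus in part built in by the choice. APP/PS1 male 2, a choroid plexus-rich library, stood apart for Hspb6 (5.849 normalized CPM against 2.42 to 2.91) and Hspb8 (23.19 against 13.6 to 14.4). APP/PS1 female 4 was high for the ER J-domain genes Dnajb9 (57.33 against 47.7 to 49.1) and Dnajb14 (178.8 against 168 to 169). APP/PS1 male 4 was low for Hspa9 (222.5 against 246 to 250) and Dnajc14 (57.45 against 60.0 to 60.3), and APP/PS1 female 1, also choroid plexus-rich, was low for Dnajc11 (52.84 against 58.9 to 60.0).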

How the results depend on the processing

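Calls were few under every alternative. With both sexes averaged, the likelihood ratio test called 1 member (Hspb6, adjusted p = 0.039, beside 2.83% of all genes), and omission of single animals called 0 to 2, the 2 being Hspa1b and Hspa5 without WT male 1 (2.41% of all genes). Between females and males, the likelihood ratio test and DESeq2 each called 1 (Hspb1, adjusted p = 0.085 and 0.091, beside 0.385% of all genes), and omission of single animals called 0 to 2, again without WT male 1 (Hspa5 and Hspb1, beside 0.193% of all genes). In females, leaving out the 3 choroid plexus-rich libraries called 1 (Hspa2, log2 fold change -0.36, adjusted p = 0.097, beside 1.11% of all genes). All these adjusted p are from the tools fitted over all genes. The cause of these changes was not tested. In males and for the difference between the sexes 0 members were called in all 21 alternatives. Centring on group means called 5 members for correlation with Hsph1 (Hspa1b, Hspa4, Dnajc18, Hspa8 and, negatively, Dnajc13, with 429 genes in all), where the permutation takes no account of the degrees of freedom used by the means.

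No pairing of the sexes by replicate number was seen. Correlations of deviations ran from -0.47 to 0.28 over 6 same-number pairs and from -0.60 to 0.73 over different-number pairs. With 2 WT animals per sex the deviations mirror each other, so the same-number WT pairs share a single r of 0.08. These values cannot exclude a pairing. A fit with the replicate block called 0 members in each comparison. The sign of the estimate held in all 21 alternatives for 33 of 62 members with both sexes averaged, 38 in females, 17 in males, 22 for the difference between the sexes and 33 for sex. With 2 WT animals per sex, 1 animal can decide a low or variable member, and low genes such as Hspb6 carry the widest intervals.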
